A study of Mus musculus with 15 samples.

Results

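A segment of chromosome 4 from Rcc2 to Ddi2 was examined in 2 brain regions, the cerebellum (Ce) and the striatum (St), and in 2 lines of mice, of which one was bred for high activity on running wheels (Hi) and the other was an unselected control (Co). Its 10 genes, of 26628 in the table, are Rcc2, Padi4, Atp13a2, Mfap2, Necap2, Fam131c, Zbtb17, Fblim1, Plekhm2 and Ddi2, which begin between 140.7 and 141.7 Mb (GRCm38). They were chosen by symbol and position after their line differences had been seen in these same samples. Differences between Co and Hi are therefore given for them as a description. Where test calls of these genes between lines are counted below, they are not evidence of a difference. Differences between Ce and St within each line, on which the choice did not directly rest, were tested. They use the same samples, and the change of a region difference between lines equals the change of a line difference between regions. That change is therefore description only, also where calls for it are counted. All 10 genes passed the filter on low values.

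RNA-seq was available for 4 CeCo, 4 CeHi, 4 StCo and 3 StHi samples, 1 further StHi sample having been removed by the authors. All mice were males of the Hsd:ICR strain, labelled as 6 weeks old, and mice of both lines had wheels for 7 days, so no group lacked running. One Hi line was compared with one Co line, so that selection and any other difference between these lines cannot be told apart. Which samples are Co and which Hi was taken from the deposited labels alone. The sources used here leave a doubt about which way round these labels are, and if they were exchanged every line direction given here would turn. Samples of a group are separate libraries, but the labels do not name the mouse behind each, and a p-value measures the spread between these samples. The unit is the fragment count of a gene divided by a library-size factor, called the normalized count. It is not divided by gene length, and totals were 38499264 to 43669012 per sample, or 32909394 to 47485541 fragments. Both tissues carried their markers: 12 of 12 cerebellar markers were higher in Ce and 12 of 12 striatal markers higher in St in each line (limma, adjusted P-value under 0.05). In whole tissue, fewer cells of a type and less RNA per cell cannot be told apart.

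The 10 genes have unrelated functions and share a neighbourhood. Genes that lie close together are inherited together more often than not, so a stretch of chromosome that came to differ between closed breeding lines carries the variants of many genes at once, in every tissue. Padi4 encodes a peptidylarginine deiminase, an enzyme that converts arginine to citrulline in histones and is best known from neutrophils, and other deiminase genes sit beside it. Atp13a2 is a lysosomal polyamine transporter, mutated in a hereditary form of parkinsonism, and Plekhm2 links lysosomes to kinesin motors. Necap2 takes part in clathrin-mediated endocytosis. Mfap2 is a protein of extracellular microfibrils and Fblim1 an adapter of cell-matrix adhesions that binds filamin. Rcc2 acts at the mitotic spindle and in Rac signalling, Zbtb17 (Miz-1) is a zinc finger transcription factor that binds Myc, and Ddi2 is a protease that activates the transcription factor Nfe2l1. The function of Fam131c is not well described.

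The upstream sequences of the gene with the widest line difference (Padi4), of the next widest among those higher in Hi in the cerebellum (Fblim1) and of the gene higher in Co without overlap in both regions (Ddi2) are shown because the results turn on these genes. They are RefSeq sequences (GRCm38.p6), minus strand, printed 5′ to 3′, and 9 of the 10 genes matched the promoter table. Capitals mark TATAAA, which is the core of the box bound by the TATA-binding protein. They also mark GGGCGG, which is the core of the box bound by Sp1, and its reverse complement. These letters and CACGTG, an E-box, were searched on both strands in the 250 bases before each start site. The sequences are those of the reference and not of these mice. The Padi4 stretch is chr4:140774210-140774453 (244 bases, of which 30 lie inside the outermost annotated end of the gene), that of Fblim1 chr4:141606053-141606302 and that of Ddi2 chr4:141723420-141723669.
Padi4: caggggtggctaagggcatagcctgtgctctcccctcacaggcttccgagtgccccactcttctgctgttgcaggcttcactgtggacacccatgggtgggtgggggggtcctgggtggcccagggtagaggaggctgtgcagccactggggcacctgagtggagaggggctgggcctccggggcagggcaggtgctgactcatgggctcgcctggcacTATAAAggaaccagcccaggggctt
Fblim1: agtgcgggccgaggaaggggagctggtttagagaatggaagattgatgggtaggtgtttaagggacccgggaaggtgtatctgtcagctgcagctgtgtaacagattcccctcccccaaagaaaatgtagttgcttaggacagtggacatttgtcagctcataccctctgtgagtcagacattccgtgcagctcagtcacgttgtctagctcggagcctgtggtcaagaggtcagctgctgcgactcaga
Ddi2: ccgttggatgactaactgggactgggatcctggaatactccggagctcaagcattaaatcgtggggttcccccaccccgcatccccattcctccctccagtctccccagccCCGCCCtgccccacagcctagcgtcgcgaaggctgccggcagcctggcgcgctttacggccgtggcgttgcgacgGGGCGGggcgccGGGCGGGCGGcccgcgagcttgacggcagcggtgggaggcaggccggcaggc
Padi4 was the single gene of the 9 with TATAAA, which begins 31 bases before its start site. The printed Padi4 stretch ends short of that site, so this distance cannot be counted from its end. TATAAA stood in 12.4% of all 32851 promoters. The 250 bases before Padi4 held 3 CpG dinucleotides, those before the printed Fblim1 start 7, those before Ddi2 26 and those before Rcc2 41. For Mfap2 the number was 18 before its first listed start and 5 before a second. The median of all promoters was 6, and 37.8% held as few as Padi4 or fewer. GGGCGG was found for 7 of the 9 genes, the exceptions being Padi4 and Zbtb17, and in 32.7% of all promoters. For Fblim1 it lay before a second annotated start site and not before the one printed. CACGTG was found for 0 of the 9 and in 6.02% of all promoters. A match is a string of letters and was not tested as a binding site.

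**Figure D1:**
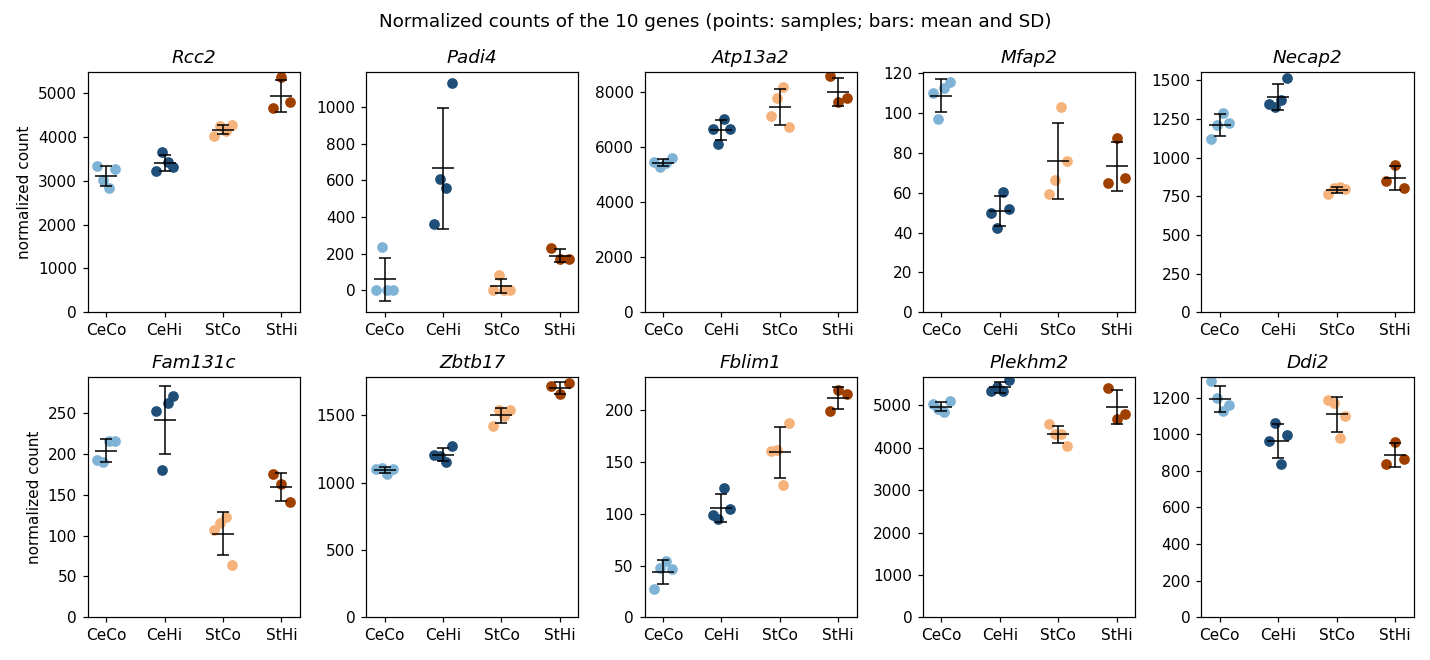
Normalized count (y axis, linear, from 0) of each of the 10 genes in CeCo, CeHi, StCo and StHi. Points are samples and bars are the mean and SD; in the Padi4 panel 1 CeCo sample at 238 and 1 StCo sample at 84.1 stand above the other control samples, and the Fblim1 groups follow one another from CeCo to StHi without overlap.

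Padi4 lies on the minus strand at chr4:140745508-140774239. It was near absent from 3 of 4 CeCo samples and present in every Hi sample. The CeCo samples held 0.932, 238, 0 and 0 normalized counts (replicates 0 to 3), or 1, 267, 0 and 0 fragments, where a count of 0 allows up to 3 fragments. The CeHi samples held 364, 606, 559 and 1131. In the striatum, StCo held 2.47, 84.1, 4.20 and 4.57 and StHi 230, 169 and 171. The lowest Hi sample stood above the highest Co sample in both regions. Co replicate 1 stood apart from the other control samples in both regions, with a value between theirs and those of the Hi samples. Only 2 of 15213 genes tested, or 0.0131%, had Co replicate 1 set apart on the high side in both regions, and these were Padi4 and Gm10020, a gene on chromosome 15.

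The group means of Padi4 were 59.7 ± 119 in CeCo (SD, n = 4), 665 ± 328 in CeHi (n = 4), 23.8 ± 40.2 in StCo (n = 4) and 190 ± 34.4 in StHi (n = 3). The size of a fitted log2 difference depends on how values near 0 are treated. On the log2(normalized count + 1) scale, the Co minus Hi difference was -7.04 (SE 1.59) in the cerebellum and -4.29 (SE 1.72) in the striatum. With a count model (edgeR) it was -3.47 and -2.94, and without both samples of Co replicate 1, -8.93 and -5.34. In the Hi line every cerebellar sample was above every striatal sample. The log2 difference of CeHi from StHi was 1.69 (SE 1.72) and did not pass the test when all samples shared an estimate of spread (limma, adjusted P-value 0.397). It did without both samples of Co replicate 1 (1.69, adjusted P-value 0.000575). In the Co line the difference of Ce from St was -1.06 (SE 1.59, adjusted P-value 0.564). It was -2.95 without CeCo replicate 1 (limma, adjusted P-value 0.00888) and -1.91 without both (adjusted P-value 0.000369). Apart from replicate 1, the Co samples held 1, 0 and 0 fragments in Ce and 2, 4 and 5 in St. Those values lie near the floor of 3 fragments, so no region difference is drawn from these P-values. With all samples the difference was 1.27 by edgeR and 1.31 by DESeq2, so its direction differed between methods.

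Padi1, Padi3 and Padi6 were under the filter, with highest values of 24.4, 7.35 and 18.9 normalized counts. Padi6, known from oocytes, held 6.17, 9.89, 18.9 and 15.5 normalized counts in StCo and between 0 and 2.11 in every sample of the other 3 groups, all under the filter and not tested. Padi2, the deiminase of oligodendrocytes, was the abundant member of the family at 861 to 1821. Its Co minus Hi log2 difference was -0.08 in the cerebellum (SE 0.17, adjusted P-value 0.845) and -0.29 in the striatum (SE 0.19, adjusted P-value 0.562). Of 9 neutrophil markers, 1 (Csf3r) passed the filter, and it did not differ between lines in either region. The 9 together held 143 to 319 normalized counts in CeCo, 147 to 162 in CeHi, 279 to 436 in StCo and 407 to 451 in StHi. Elane was at 3 fragments or fewer in all samples. Counted with Elane, 6 of the 9 were so low in every StCo sample and 5 in every StHi sample, against 1 in CeCo and 2 in CeHi. The striatal sums therefore rest on few genes, and no level of neutrophils is drawn from them. The summed markers of Co replicate 1 were 143 in Ce, the lowest of CeCo, and 409 in St.

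Fblim1 (minus strand, chr4:141576062-141606052) was higher in Hi in both regions. It held 27, 47.3, 54.6 and 47.2 normalized counts in CeCo and 99.2, 94.9, 125 and 105 in CeHi. In the striatum the values were 160.5, 161, 128 and 187 in StCo and 200, 219 and 216 in StHi. No Co sample reached a Hi sample of the same region. The Co minus Hi log2 difference was -1.28 (SE 0.18) in the cerebellum and -0.41 (SE 0.20) in the striatum, and the first exceeded the second in size by 0.87 (SE 0.27). Levels in the striatum were above those of the cerebellum in both lines. The log2 difference of Ce from St was -1.87 (SE 0.18, limma, adjusted P-value 7.54e-08) in Co and -1.0 (SE 0.20, adjusted P-value 0.000255) in Hi.

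Mfap2 (plus strand, chr4:141010424-141015976), a component of microfibrils, differed between lines in the cerebellum and in the opposite direction from Fblim1. The CeCo samples held 110, 97.2, 113 and 116 normalized counts and the CeHi samples 49.6, 42.2, 60.2 and 51.8. The striatal groups overlapped, with 59.2, 66.3, 103 and 75.9 in StCo and 64.9, 87.4 and 67.7 in StHi. The Co minus Hi log2 difference was 1.09 (SE 0.17) in the cerebellum and 0.04 (SE 0.19) in the striatum, 1.05 (SE 0.26) apart. Its region difference had opposite signs in the lines. The gap between its region differences is the same 1.05 as between its line differences, so the change of sign is description only. In Co, Mfap2 was higher in Ce than in St (log2 difference 0.53, SE 0.17, limma, adjusted P-value 0.0109). In Hi it was lower in Ce (-0.52, SE 0.19, adjusted P-value 0.0213), a call lost without CeHi replicate 1 (adjusted P-value 0.0626) or StHi replicate 1 (adjusted P-value 0.112). Fibroblast and meningeal markers, 9 genes that like Mfap2 belong to connective tissue, summed to 8490 to 15468 normalized counts in CeCo, 7791 to 10706 in CeHi, 2126 to 3277 in StCo and 2336 to 2890 in StHi. Of these 9, Col3a1 was higher in CeCo than in CeHi and none passed the test in the striatum. Their part in the Mfap2 values was not tested.

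Ddi2 (minus strand, chr4:141683563-141723419) was higher in Co in both regions and by nearly the same amount. It held 1288, 1200, 1125 and 1160 normalized counts in CeCo and 965, 1059, 836 and 996 in CeHi. The StCo samples held 1184, 1173, 979 and 1099 and the StHi samples 837, 958 and 864. The lowest Co sample was above the highest Hi sample in each region. The Co minus Hi log2 difference was 0.32 (SE 0.08) in the cerebellum and 0.33 (SE 0.09) in the striatum. Ddi2 was also one of the 2 genes whose region difference did not pass the test. The difference of Ce from St was 0.10 in Co (SE 0.08, limma, adjusted P-value 0.245) and 0.11 in Hi (SE 0.09, adjusted P-value 0.247). Ddi2 contains Rsc1a1 on the same strand, and 17.9% of the 50-base windows of its exons also occur in that gene, so how reads were divided between them could not be seen. The other 9 genes shared between 0 and 0.972% of such windows with any other gene.

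The 2 lysosomal genes were the most abundant with Rcc2. Per kilobase of exon, StCo means were 1243 ± 109 normalized counts for Atp13a2, 1003 ± 25.8 for Rcc2 and 832 ± 39.5 for Plekhm2 (SD, n = 4), and the lowest were 35.7 ± 5.45 for Fblim1 and 4.93 ± 8.31 for Padi4. Atp13a2 (plus strand, chr4:140986216-141007330) held 5452, 5284, 5424 and 5603 normalized counts in CeCo and 6669, 6119, 7008 and 6670 in CeHi, with no overlap. In StCo it held 7119, 7800, 8183 and 6726 and in StHi 8574, 7628 and 7770, which overlapped. Its Co minus Hi log2 difference was -0.28 (SE 0.06) in the cerebellum and -0.10 (SE 0.07) in the striatum. Plekhm2 (minus strand, chr4:141625732-141664146) ranged from 4847 to 5099 in CeCo, 5326 to 5588 in CeHi, 4052 to 4553 in StCo and 4674 to 5412 in StHi. Neither pair of line groups overlapped, although the differences were small, at -0.12 (SE 0.05) and -0.19 (SE 0.06). Necap2 (minus strand, chr4:141066512-141078357), of the endocytic machinery, ranged from 1119 to 1288 in CeCo and 1328 to 1517 in CeHi, without overlap. Its striatal ranges of 762 to 806 in StCo and 806 to 955 in StHi met, and the log2 differences were -0.20 (SE 0.07) and -0.13 (SE 0.07).

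Zbtb17 (plus strand, chr4:141444673-141467937) was among the steadiest of the 10. It ranged from 1063 to 1107 normalized counts in CeCo, 1153 to 1272 in CeHi, 1418 to 1539 in StCo and 1655 to 1738 in StHi, 4 ranges that did not touch. Its Co minus Hi log2 difference was -0.14 (SE 0.05) in the cerebellum and -0.18 (SE 0.05) in the striatum. Its 3′ end overlaps Spen, on the opposite strand, and the use of strand in the counting is not given in the sources used here, so reads of the overlap cannot be told apart. Rcc2 (plus strand, chr4:140701473-140723220) ranged from 2841 to 3340 in CeCo and 3231 to 3645 in CeHi, which overlapped. In the striatum it ranged from 4030 to 4261 in StCo and 4662 to 5358 in StHi, which did not. The log2 differences were -0.12 (SE 0.06) and -0.24 (SE 0.06). Fam131c (plus strand, chr4:141368192-141384174) held 193, 190, 216 and 216 in CeCo, 252, 180, 262 and 271 in CeHi, 107, 115, 123 and 64.0 in StCo and 175, 163 and 141 in StHi. The cerebellar groups overlapped through 1 CeHi sample and the striatal groups did not, with log2 differences of -0.22 (SE 0.18) and -0.67 (SE 0.19).

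**Figure D2:**
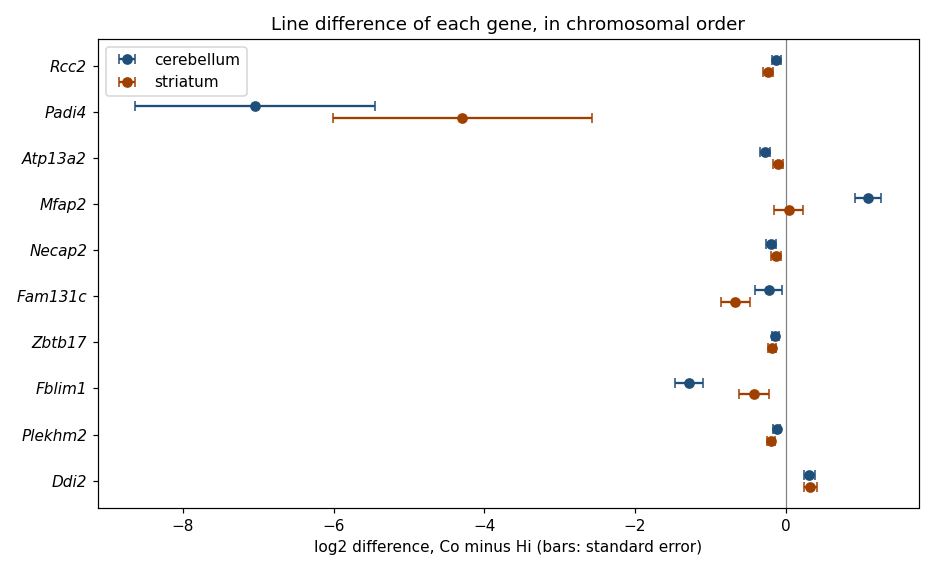
Log2 difference Co minus Hi (x axis; bars are the standard error) of the 10 genes in chromosomal order, in the cerebellum and the striatum. Mfap2 and Ddi2 lie to the right of 0 (higher in Co) and the other 8 genes to the left (higher in Hi), with Padi4 at -7.04 and -4.29.

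Of the 10 genes, 8 were higher in Hi and 2 (Mfap2 and Ddi2) higher in Co by the sign of the difference in each region, although that of Mfap2 in the striatum was near 0 and changed sign with sample quality weights or without StCo replicate 2, StHi replicate 0 or StHi replicate 2. The Co and Hi samples did not overlap for 8 genes in the cerebellum, where this held for 13.3% of all genes tested, and for 7 in the striatum (13.1% of all). It held in both regions with the same direction for 5 genes (3.51% of all). Padi4, Zbtb17, Fblim1 and Plekhm2 were higher in Hi, as were 1.86% of all genes, and Ddi2 in Co, as were 1.65%. At an adjusted P-value under 0.05 (limma), 5 genes differed in the cerebellum, against 5.94% of all genes, and 3 without CeCo replicate 0, CeCo replicate 3 or CeHi replicate 2. In the cerebellum edgeR called 4 and DESeq2 5, and neither called Padi4 (adjusted P-values 0.116 and 0.209). In the striatum the number by limma was 0, against 2.66% of all. There edgeR called 0 (420 of all genes tested) and DESeq2 5 (709 of all). An unadjusted P-value under 0.05 was held by 6, for which no share of all genes was taken. For the difference of the line effect between regions the number by limma was 0 (0.532% of all). It was 0 by edgeR (100 of all genes tested) and 1 (Mfap2) by DESeq2 (277 of all). Mfap2 and Fblim1 (2 genes) had an unadjusted P-value under 0.05, again without a share of all genes. Over both regions all 10 passed by limma, against 8.48% of genes, which is what the choice of these genes fixed. There edgeR and DESeq2 each called 9, without Padi4 (adjusted P-values 0.0524 and 0.0723), and their shares of all genes are not given here. Since the genes were picked for their line differences, these counts are no evidence about the segment. The median size of the log2 difference was 0.25 for the 10 and 0.10 for all genes in the cerebellum, and 0.21 and 0.08 in the striatum. Summed oligodendrocyte markers (8 genes) were also higher in StHi (304442 to 345272 normalized counts) than in StCo (199474 to 288212), and overlapped in the cerebellum at 183598 to 224154 in CeCo and 208824 to 266629 in CeHi. None of the 8 passed the test within a region, and their part in the striatal differences was not tested.

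**Figure D3:**
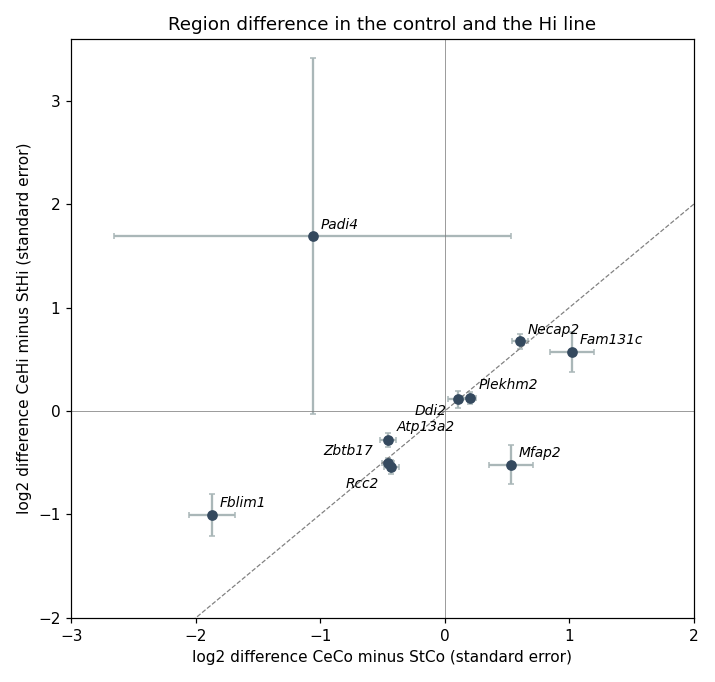
Log2 difference of cerebellum from striatum in the Co line (x axis) and in the Hi line (y axis) for the 10 genes, with standard errors; the dashed line marks equality. Mfap2 is positive in Co (0.53) and negative in Hi (-0.52), and Padi4 (-1.06 and 1.69) has the widest errors.

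The brain regions differed for most of the 10 genes, as they did for most genes. In the Co line 8 of the 10 passed the test (limma, 74.7% of all genes), and in the Hi line the same 8 (70.5% of all). Padi4 and Ddi2 were the exceptions in both. Higher in the cerebellum were 4 genes in Co (37.8% of all) and 3 in Hi (35.4% of all), and higher in the striatum 4 in Co (36.9% of all) and 5 in Hi (35.1% of all), Mfap2 being the gene that changed sides. Higher in the cerebellum in both lines were Necap2, Fam131c and Plekhm2. The log2 difference of Ce from St was 0.61 (SE 0.07, adjusted P-value 2.13e-07) in Co and 0.67 (SE 0.07, adjusted P-value 1.84e-07) in Hi for Necap2. For Fam131c it was 1.02 (SE 0.18, adjusted P-value 6.03e-05) in Co and 0.57 (SE 0.19, adjusted P-value 0.0135) in Hi, the latter lost without StHi replicate 2 (adjusted P-value 0.0629). For Plekhm2 it was 0.20 (SE 0.05, adjusted P-value 0.00203) in Co. In Hi the Plekhm2 difference of 0.13 (SE 0.06, adjusted P-value 0.0494) was lost on leaving out any 1 of 12 of the 15 samples (adjusted P-value 0.0552 to 0.224) and with the replicate block (adjusted P-value 0.0537).

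Higher in the striatum in both lines were Rcc2, Atp13a2, Zbtb17 and Fblim1. Rcc2 had log2 differences of Ce from St of -0.43 (SE 0.06, limma, adjusted P-value 5.58e-06) in Co and -0.54 (SE 0.06, adjusted P-value 1.02e-06) in Hi. Those of Atp13a2 were -0.46 (SE 0.06, adjusted P-value 4.73e-06) and -0.28 (SE 0.07, adjusted P-value 0.00164). Those of Zbtb17 were -0.46 (SE 0.05, adjusted P-value 1.40e-07) and -0.50 (SE 0.05, adjusted P-value 1.35e-07). These 4 genes shared 1 order of group means, CeCo below CeHi below StCo below StHi. Neighbours in that order did not overlap for Zbtb17 and Fblim1, whereas CeCo and CeHi overlapped for Rcc2, and StCo overlapped both CeHi and StHi for Atp13a2. Necap2, Fam131c and Plekhm2 shared another order, StCo below StHi below CeCo below CeHi.

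**Figure D4:**
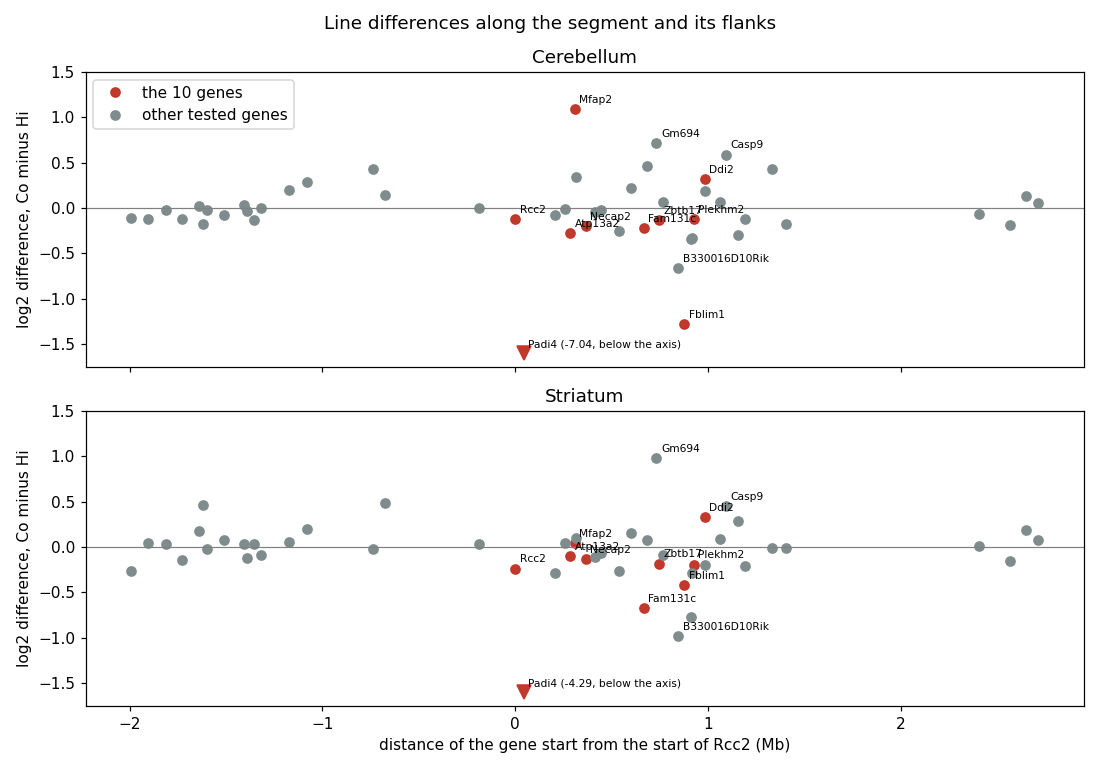
Log2 difference Co minus Hi (y axis) of every tested gene of the segment and of 2 Mb on either side, against the distance of its start from that of Rcc2 (x axis, Mb), in the cerebellum and the striatum. Red points are the 10 genes, grey points the others, and triangles mark Padi4, which lies below the axis (-7.04 and -4.29); the nearest genes outside the segment lie near 0.

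Of 27 further genes in the same 1 Mb, 14 passed the filter. Of these, 2 differed between lines in each region (limma), namely Gm694 and B330016D10Rik, while the other 12 passed the test in neither. Gm694 (chr4:141432672-141436105), a predicted gene between Fam131c and Zbtb17, was higher in Co. It held 95.4 to 111 normalized counts in CeCo and 48.5 to 81.4 in CeHi, and 102 to 137 in StCo and 49.9 to 70.0 in StHi. The log2 difference was 0.71 (adjusted P-value 0.0152) in the cerebellum and 0.99 (adjusted P-value 0.00422) in the striatum, and the first was lost without CeCo replicate 0 (adjusted P-value 0.0531). B330016D10Rik (chr4:141546162-141548313), between Zbtb17 and Fblim1, was higher in Hi. It held 330 to 422 in CeCo, 555 to 632 in CeHi, 91.4 to 124 in StCo and 203 to 213 in StHi. The log2 difference was -0.66 (adjusted P-value 0.000389) and -0.98 (adjusted P-value 2.17e-05). Genes higher in Co (Mfap2, Gm694 and Ddi2) lay among genes higher in Hi along the segment.

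Beyond the ends of the segment, Arhgef10l was the nearest tested gene before Rcc2, with means of 4176 ± 295 normalized counts in CeCo and 4182 ± 210 in CeHi (SD, n = 4). Dnajc16 was the nearest after Ddi2, with 1764 ± 41.2 and 1697 ± 72.9. Neither differed between lines in the cerebellum (adjusted P-values 0.989 and 0.483) or the striatum (0.915 and 0.408, limma). In the 2 Mb before the segment 17 genes were tested, of which 0 passed in the cerebellum and 1 (Igsf21) in the striatum. In the 2 Mb after it 10 were tested, of which 2 (Casp9 and Tmem51) passed in the cerebellum and 1 (Casp9) in the striatum. Casp9, an initiator caspase of apoptosis, was picked out after its values were seen. It lies at chr4:141793612-141815978, was higher in Co, and had log2 differences of 0.59 (adjusted P-value 1.08e-06) and 0.45 (adjusted P-value 8.47e-05). Over chromosome 4 as a whole, 5.82% of 910 genes tested differed in the cerebellum and 3.08% in the striatum.

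Of 21 relatives of the 10 genes, such as the other Padi, Atp13a and Plekhm genes, 16 were tested, and 1 passed the test between lines in the cerebellum (5.94% of all genes) and 2 in the striatum (2.66% of all genes). Atp13a5, a related transporter, was higher in Co in the cerebellum (log2 difference 0.42, limma, adjusted P-value 0.00681). In the striatum Rcc1, which exchanges nucleotide on the GTPase Ran, and Atp13a4 were higher in Hi (-0.33, adjusted P-value 0.0353, and -0.36, adjusted P-value 0.0285), calls that were lost when the striatum was fitted alone. The Rcc1 call was also lost without StCo replicate 0 or 1 or StHi replicate 1 or 2 (adjusted P-value 0.0813 to 0.158), and that of Atp13a4 without StCo replicate 0, 1 or 3 or StHi replicate 0 or 1 (0.0585 to 0.124). Median log2 differences of the relatives were 0.02 and 0.04, against 0.00 and 0.00 for all genes. Of 45 partners, 43 were tested. In the striatum 0 of them differed between lines by limma (2.66% of all genes). There edgeR called 0 (420 of all genes tested) and DESeq2 2 (709 of all). An unadjusted P-value under 0.05 was held by 2 partners, for which no share of all genes was taken. Their median log2 differences were 0.04 in the cerebellum and -0.00 in the striatum. Between the regions, 31 of the 43 partners and 8 of the 16 relatives differed in Co, where 74.7% of all genes did. In Hi 31 and 10 differed, where 70.5% of all genes did.

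The genes most like each of the 10 across samples were mostly elsewhere. Likeness was Pearson's r of log2 values over 15 samples after the mean of each region was removed, a description in which the samples share lines and libraries. The closest were Gm10020 for Padi4 (r = 0.964), Trnp1 for Fblim1 (0.942), Tcp11l1 for Ddi2 (0.942), Cox4i2 for Zbtb17 (0.936), Upp1 for Necap2 (0.935), Ghdc for Fam131c (0.928), 6720456H20Rik for Rcc2 (0.926), Commd9 for Plekhm2 (0.926), 1500009C09Rik for Atp13a2 (0.922) and Ighmbp2 for Mfap2 (0.921). Of these, Trnp1 is on chromosome 4, outside the segment. Among the 20 genes most like each of the 10, the 1 gene of the segment was B330016D10Rik, in the list of Zbtb17.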

How the data were processed

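Paired-end reads were aligned to GRCm38 with TopHat2 and gene values were normalized for library size with Cuffnorm 2.2.1, per the submitters' processing notes. The deposited values are a gene-level signal, fragment counts that the authors scaled by 1 factor per sample. They are not divided by gene length. Of the values under 100, 99.4% to 99.6% per sample were whole multiples of 1 fragment (tolerance 0.02 fragments), worth 0.841 to 1.30 normalized counts. The floor of 3 fragments covers counting error only.

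Genes with a CPM of at least 1 in 3 samples (15213 genes) were tested with limma 3.58.1 (trend, robust) in R 4.3.3 on log2(value + 1) after TMM scaling (factors 0.993 to 1.01), with the 4 group means in 1 fit of 15 samples. Tests were two-sided with Benjamini-Hochberg adjustment over all 15213 genes. For genes with values near 0 the size of a fold on this scale depends on the pseudocount. The script was tested on simulated data. The recovered fragments were also tested with edgeR 4.0.16 (quasi-likelihood) and DESeq2 1.42.0. Other alternatives were the pseudocount, filter, scaling, sample weights, replicate block, separate fits and leaving out samples. Leaving out both samples of Co replicate 1, and the mean line contrast, were added after seeing the data.

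Same-numbered Ce and St samples deviated together in Co (r of deviations from the group means, across genes, 0.171 to 0.278 in 4 pairs) and not in Hi (-0.0751 to 0.0513 in 3 pairs). The numbers therefore pair the Co samples, by the data and not by the labels. Groups were taken from the labels.

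The 10 genes and all gene lists were chosen with earlier results of these data known. Named besides them were genes of the same 1 Mb, relatives and partners with an adjusted P-value under 0.05 in a line contrast or the interaction, the nearest tested gene on either side, deiminase relatives in the segment, and for each gene its closest genes by correlation, of which the first is given. Gene coordinates came from RefSeq GRCm38.p6, in which 24537 of 26628 symbols were placed. Strands and exons of the 10 genes, and the transcript sequences searched for shared windows, came from the GENCODE annotation of GRCm38. Locomotor data and the removed StHi sample were not analysed here. The result of the partner list in the cerebellum between lines is not reported here.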

Additional observations from a re-analysis of the deposited data

Results flagged for a closer look

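A sample was set apart where its gap to the nearest other sample of a group of 4 was, as a share of the range of the group, above Dixon's 95% critical value. This was so for 7 of 69 groups examined, where chance flags about 1 in 20. Padi4 stood at 238 normalized counts in CeCo replicate 1 and at 84.1 in StCo replicate 1, high in both. Zbtb17 was low in CeCo replicate 2, at 1063. Outside the 10 genes, Arhgef10l was high in CeCo replicate 1 (4613), Padi2 low in CeHi replicate 1 (861) and high in StCo replicate 0 (1450), and Padi3 stood apart in CeCo replicate 2 at 0.853, less than the detection floor.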

How the results depend on the processing

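The region calls of Rcc2, Atp13a2, Necap2, Zbtb17 and Fblim1 kept their direction and side of the threshold in both lines under every alternative run. The line differences of the 10 genes did not change direction under any alternative, except that of Mfap2 in the striatum, which is near 0. In the fit with a replicate block, samples of the same number shared a block across both lines, which is not the pairing seen in Co. This fit gave 1 of the 10 genes called in the striatum in place of 0. It ended the Plekhm2 call in Hi (limma, adjusted P-value 0.0537). It also ended the call of Rcc1 (adjusted P-value 0.0502) and no other call of a gene named here. A fit that paired same-numbered samples within each line (correlation 0.022) left the striatal number at 0. Padi4 reversed in CeCo minus StCo by edgeR (1.27) and DESeq2 (1.31). Genes called in CeCo minus CeHi numbered 903, but 1389 by DESeq2 and 571 without both samples of Co replicate 1. In StCo minus StHi they numbered 405, but 740 with sample quality weights, 709 by DESeq2 and 253 without both. For the interaction they numbered 81, but 182, 277 and 40. Of the 10 genes, 5 were called in the cerebellum but 3 without both, 0 in the striatum but 3 with weights, 5 by DESeq2 and 1 without both, and 0 for the interaction but 1 under each of these 3. Leaving out single samples gave 613 to 953 genes in the cerebellum, 269 to 468 in the striatum, 46 to 117 for the interaction, 10992 to 11476 for CeCo minus StCo and 10067 to 10763 for CeHi minus StHi. For the 10 genes it gave 3 to 5 (fewest without CeCo replicate 0 or 3 or CeHi replicate 2), 0 to 2 (most without StCo replicate 2), 0 to 1, 8 to 9 and 6 to 8. The 269 genes in the striatum were reached without StCo replicate 1 or StHi replicate 2, and the 46 for the interaction without StHi replicate 1. The cause of these shifts was not tested, apart from the fewer samples.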
